A study of Schizosaccharomyces pombe with 7 samples.

Results

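Newly assembled histone H3 was examined over snoU14, snR92, snoZ30 and snu1, 4 small noncoding RNA genes on chromosome II of fission yeast, Schizosaccharomyces pombe. The genes were taken with 500 bp of flank on each side, and a probe belonged to a gene if its midpoint lay in that window on the reference ASM294v3. The 4 genes, of 2245 measured, held 91 of the 43993 probes of the array, 23 each for snoU14, snR92 and snu1 and 22 for snoZ30. The genes themselves, of 95 to 149 bp, held only 2 or 3 probes each. The DNA had been sheared to 500 to 1000 bp, longer than any of these genes, so a window value describes the gene together with its surroundings. The 4 genes were chosen on these ratios across the genotypes. Their values and differences are therefore given as a description, without a test.

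Cells of every genotype carried an inducible FLAG-tagged H3 and were held in S phase with 15 mM hydroxyurea, which blocks DNA replication, for 4 h in minimal medium with 8% glucose at 30 °C. They were then moved to 4% sucrose with hydroxyurea for 2 h to switch on the tagged H3, and fixed in 1% formaldehyde. The genotypes were fft3Δ clr3Δ (1 array), clr3Δ (1 array), fft3Δ (2 arrays) and wild type (3 arrays). Fft3 remodels nucleosomes and belongs to the Snf2 ATPases, and Clr3 removes acetyl groups from histones within the silencing complex SHREC. The question named in the title of the series is how Fft3 restrains the turnover of nucleosomes. DNA recovered with anti-FLAG (ChIP, Cy5) was hybridised beside whole-cell extract DNA (input, Cy3). The labels do not say whether arrays of 1 genotype came from separate cultures, so the spread between them may be technical. The probes of fft3 and clr3 were not analysed here, and the genotype labels were not checked against those genes.

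Small nucleolar RNAs guide the chemical modification and cleavage of other RNAs, and small nuclear RNAs are the core of the spliceosome. Box C/D guides direct methylation of the ribose, box H/ACA guides direct the conversion of uridine to pseudouridine, and both work as particles with a fixed set of proteins. These genes are short and most are transcribed by RNA polymerase II at a high rate. Histones in transcribed chromatin are known to be exchanged outside of replication, and tagged H3 made during a replication block follows that exchange. U14, the RNA of snoU14, is needed in yeast for the processing of the small-subunit ribosomal RNA. The Z30 RNA of snoZ30 guides methylation of U6 snRNA in mammals. snR92 is annotated as a box H/ACA RNA. snu1 encodes U1 snRNA, whose 5′ end pairs with the 5′ splice site.

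The sequences of the 4 genes, read from RefSeq's ASM294v3, are shown with letters that fit the class of each RNA. All lie on the plus strand: snoU14 at chrII:1308634-1308745, snR92 at chrII:2121215-2121358, snoZ30 at chrII:2044411-2044505 and snu1 at chrII:3020205-3020353. Capitals mark TGATGA, the box C consensus, and CTGA, box D, in snoU14 and snoZ30. In snR92 they mark the last ACA, taken as the ACA box because of the annotation. ACA occurs in all 4 genes, and box H was not searched for. CTGA also occurs in snR92, at base 136, and overlaps the marked ACA. In snu1 they mark ACTTACC, the letters that pair with the 5′ splice site, and ATTTTTG, which fits the site bound by the Sm protein ring; the first of these was searched for after the sequence had been seen.
snoU14: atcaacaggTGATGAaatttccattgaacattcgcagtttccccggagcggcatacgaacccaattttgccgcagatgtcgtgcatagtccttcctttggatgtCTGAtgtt
snoZ30: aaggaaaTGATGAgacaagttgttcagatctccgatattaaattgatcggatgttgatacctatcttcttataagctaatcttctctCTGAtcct
snR92: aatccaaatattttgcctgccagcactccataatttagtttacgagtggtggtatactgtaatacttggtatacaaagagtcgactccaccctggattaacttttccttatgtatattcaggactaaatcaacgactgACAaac
snu1: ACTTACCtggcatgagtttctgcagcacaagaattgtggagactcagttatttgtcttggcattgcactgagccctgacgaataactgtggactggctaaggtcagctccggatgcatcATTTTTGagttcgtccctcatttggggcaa
Box C began at base 10 of snoU14 and at base 8 of snoZ30, and box D ended 4 bases before the annotated 3′ end of snoU14 and of snoZ30. The ACA box ended 3 bases before the 3′ end of snR92. U1 began with its splice-site letters at base 1, and the Sm letters began at base 120.

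Values are log2 ratios of ChIP to input, averaged over the probes of a gene window after the median of each array was set to 0, so that 0 is the array's middle and not an absence of new H3. There was no dye swap, and a level holds both enrichment and any dye bias of its probes. In a difference between genotypes only a bias that is the same on each array cancels. The ratio is an average over a culture, so fewer cells with tagged H3 at a locus and less of it per cell cannot be told apart. Slide 1 held wild type 1 and fft3Δ 1, slide 2 held wild type 2 and fft3Δ 2, and slide 3 held wild type 3, clr3Δ and the double mutant; differences are therefore also given within a slide. All probes of the 4 windows were well above background in both channels on all 7 arrays, and the number of arrays is what limits the precision. The double-mutant array stood apart: over 2245 genes it correlated at 0.44 to 0.47 with the wild-type arrays, at 0.63 and 0.50 with the fft3Δ arrays and at 0.72 with clr3Δ, while the clr3Δ and fft3Δ arrays correlated with them at 0.78 or more. Its log2 ratios also had the smallest SD over probes, 0.398 against 0.454 to 0.598 on the other 6 arrays. It had the most spots left out as marked outliers, 929 against 4 to 323 on the other 6.

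New H3 over snoU14 was lowest in the double mutant and highest in fft3Δ. The log2 ratio was −0.24 in fft3Δ clr3Δ, 0.28 in clr3Δ, 0.67 and 0.66 in the 2 fft3Δ arrays, and 0.61, 0.41 and 0.20 in the 3 wild-type arrays. The double mutant was the lowest of the 7 arrays by a wide gap, and both fft3Δ arrays lay just above the highest wild-type array. The clr3Δ array lay inside the range of wild type, whose mean was 0.40 ± 0.21 (SD, n = 3).

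The double mutant differed from wild type at snoU14 by −0.64 (SE 0.16) and from the wild-type array on slide 3 by −0.43. It differed from clr3Δ, hybridised on the same slide, by −0.52 (SE 0.20). Among the 2245 genes measured, the difference from wild type was the 22nd lowest. In fft3Δ the difference from the mean of all 3 wild-type arrays was 0.26 (SE 0.13). Within slides it was 0.057 on slide 1 and 0.26 on slide 2, and without wild type 3, the lowest wild-type array and the one with no fft3Δ array on its slide, it was 0.157. Deletion of fft3 thus went with a higher ratio where clr3 was present and with a lower one where clr3 was deleted, a difference of −0.78 (SE 0.23) between both effects. The comparisons with wild type share its 3 arrays and are not independent of each other.

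**Figure D1:**
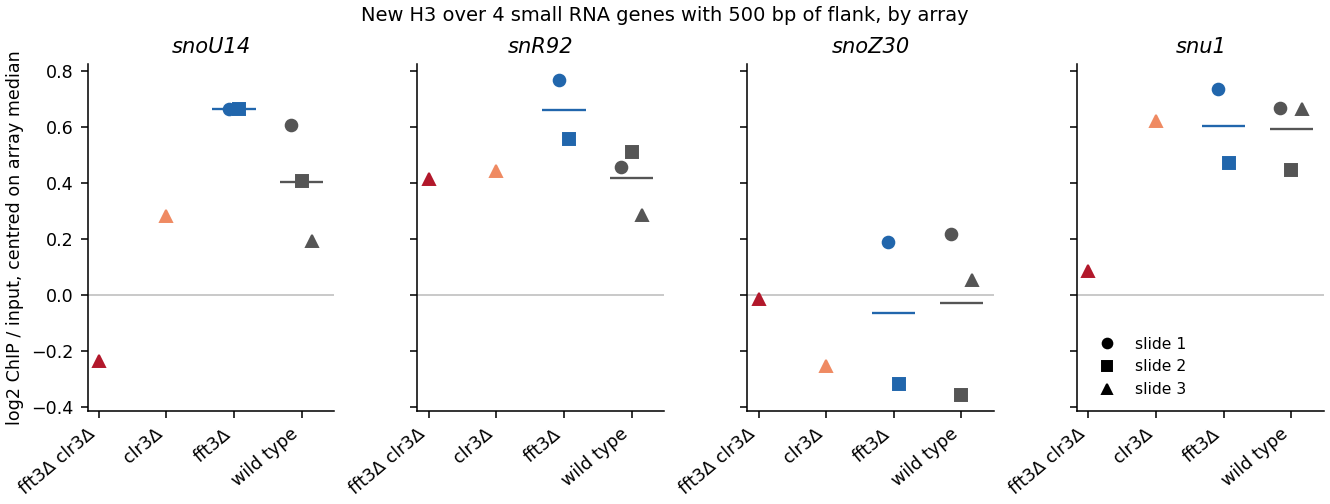
Log2 ratio of ChIP to input over each gene window (vertical axis, centred on the array median) by genotype; each point is 1 array, its shape gives the slide, and horizontal lines are means of the 2 fft3Δ and the 3 wild-type arrays. The double mutant lies below all other arrays at snoU14 (−0.24) and at snu1 (0.088), while snoZ30 is lowest on the arrays of slide 2.

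The pattern at snoU14 was strongest before the gene. In the 10 probes of the upstream flank the ratio was −0.054 in fft3Δ clr3Δ, 0.69 in clr3Δ, 1.17 and 1.11 in fft3Δ, and 0.99, 0.84 and 0.50 in wild type. In the 10 probes downstream it was −0.44 in fft3Δ clr3Δ, −0.17 in clr3Δ, 0.089 and 0.18 in fft3Δ, and 0.17, −0.048 and −0.14 in wild type. The upstream flank was thus rich in new H3 in all genotypes except the double mutant, and the ratio dropped past the gene in every genotype. The difference between the double mutant and wild type was −0.83 upstream, −0.71 over the 3 probes of the gene and −0.43 downstream. For fft3Δ against wild type the same stretches gave 0.37, 0.32 and 0.14. The double mutant lay below all 3 wild-type arrays at 22 of 23 probes, and the largest gap of a single probe, −1.12, was 394 bp before the gene start. Neighbouring probes read the same DNA fragments and are not replicates. By gene window, the double mutant lay below all wild-type arrays at 39.1% of all genes.

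The stretch with these differences around snoU14 was about 1.5 kb long and took in its upstream neighbour. In 500-bp bins the double mutant differed from wild type by −0.56, −0.83 and −0.59 in the bins that start 1000 bp before, 500 bp before and at the gene start, and by −0.10 and −0.14 in the bins on either side of these. mamRNA, a long noncoding RNA annotated as associated with Mmi1 and Mei2, regulators of meiotic transcripts, lies there on the same strand in 2 annotated forms that end 274 and 441 bp before snoU14. Over the longer form, without flank, the ratio was 0.048 in fft3Δ clr3Δ, 0.69 in clr3Δ, 1.11 and 1.15 in fft3Δ, and 0.85, 0.81 and 0.44 in wild type. The 2 fft3Δ arrays were above and the double mutant below all wild-type arrays, as at snoU14, from which these probes were in part shared. sol1, a gene for a SWI/SNF subunit, lies 326 bp downstream on the other strand. Without flank it differed by −0.041 between the double mutant and wild type, and by 0.18 from wild type 3 on the same slide.

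snu1 shared the low value of the double mutant but not the high value of fft3Δ. The log2 ratio was 0.088 in fft3Δ clr3Δ, 0.62 in clr3Δ, 0.74 and 0.47 in fft3Δ, and 0.67, 0.45 and 0.66 in wild type. The double mutant lay below the other 6 arrays by a wide gap, the lowest of them being wild type 2. The fft3Δ and clr3Δ arrays were mixed with those of wild type, whose mean was 0.59 ± 0.13 (SD, n = 3). Differences from wild type were −0.50 (SE 0.15) in the double mutant, 0.031 in clr3Δ and 0.012 in fft3Δ. On slide 3 the double mutant differed by −0.58 from wild type and by −0.53 from clr3Δ. The difference between both effects of fft3 deletion, with and without Clr3, was −0.55 (SE 0.22).

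At snu1 the lower ratio covered the gene and the stretch after it. Over the 3 probes of the gene the ratio was 0.31 in fft3Δ clr3Δ, 0.84 in clr3Δ, 0.79 and 0.71 in fft3Δ, and 0.79, 0.82 and 0.86 in wild type, where the spread was small (SD 0.036). The double mutant differed from wild type by −0.39 upstream, −0.52 in the gene and −0.61 downstream. It lay below all wild-type arrays at 21 of 23 probes, which share fragments and are not replicates. By gene window it did so at 39.1% of all genes. In 500-bp bins the differences were −0.59 and −0.49 in the bins starting at the gene start and 500 bp after it, and −0.12 in the bin that follows. The antisense noncoding RNA SPNCRNA.5934 overlaps snu1 and cannot be separated from it on these arrays. zng1, a gene for a nucleotide-binding protein of the CobW family that starts 327 bp further on, differed by −0.29 without flank. gpt2, a gene for an enzyme of N-glycan synthesis that ends 211 bp before snu1, differed by −0.14 without flank. The upstream gene thus differed less than the downstream one.

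**Figure D2:**
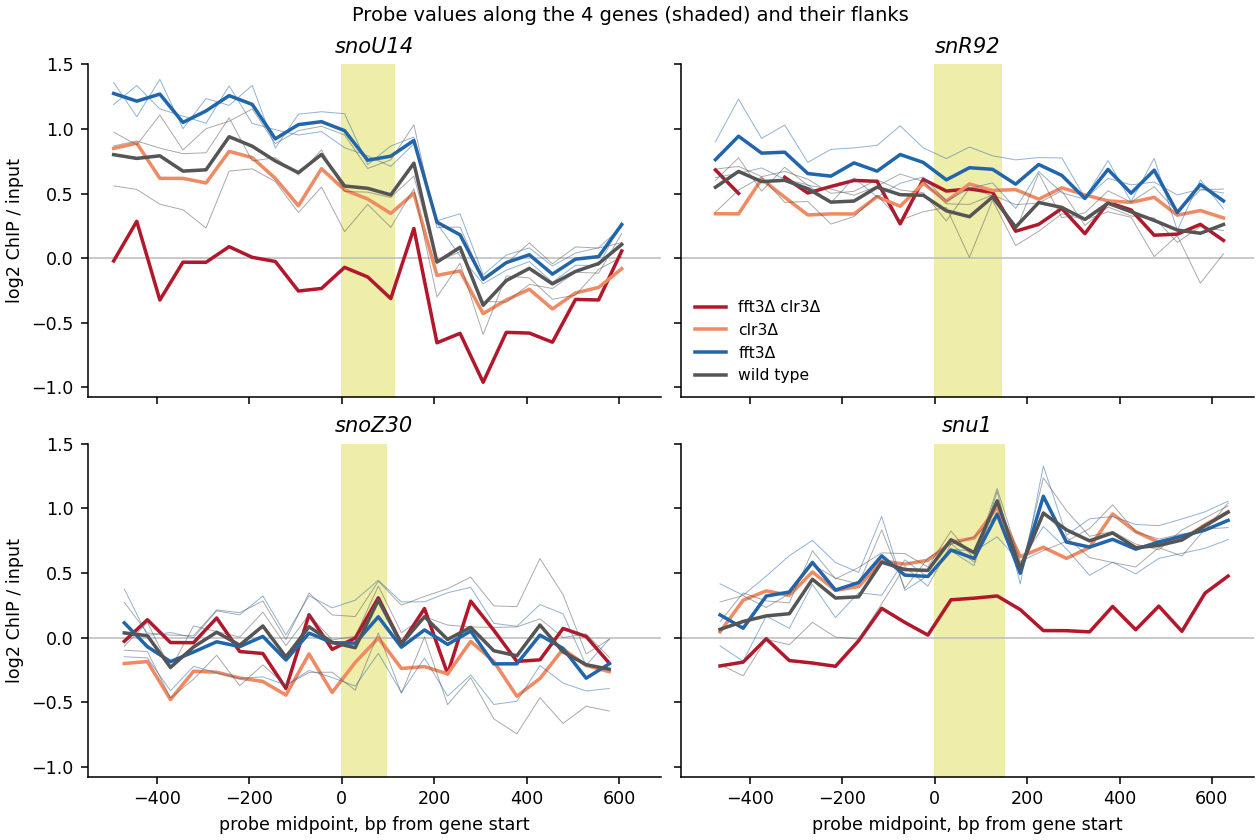
Log2 ratio of ChIP to input of each probe against the distance of its midpoint from the gene start in bp, with the gene shaded; thick lines are the genotype means (1, 1, 2 and 3 arrays) and thin lines single arrays of fft3Δ and wild type. The double mutant lies below each of the 3 wild-type arrays at 22 of 23 probes of snoU14 and at 21 of 23 of snu1, and runs through the wild-type values at snR92 and snoZ30. Neighbouring probes read the same DNA fragments and are not replicates.

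snR92 had a wild-type ratio close to that of snoU14 but no low ratio in the double mutant. The ratio was 0.42 in fft3Δ clr3Δ, 0.44 in clr3Δ, 0.77 and 0.56 in fft3Δ, and 0.46, 0.51 and 0.29 in wild type, with a wild-type mean of 0.42 ± 0.12 (SD, n = 3). Both fft3Δ arrays lay above all wild-type arrays, while the double mutant and clr3Δ lay inside their range. The difference of fft3Δ from the mean of all 3 wild-type arrays was 0.24 (SE 0.11). Within slides it was 0.31 on slide 1 and 0.045 on slide 2. It was 0.14 without fft3Δ 1 and 0.177 without wild type 3, the lowest wild-type array. The double mutant differed from wild type by −0.0042 and clr3Δ by 0.023.

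The locus of snR92 lies between mag2, a DNA glycosylase gene, and rpt6, a gene for an ATPase of the proteasome, in the stretch between the annotated mat1 and mat3 genes of the mating-type region. The antisense noncoding RNA SPNCRNA.1487 runs across it. The fft3Δ difference was spread evenly along the window, 0.22 upstream, 0.28 in the gene and 0.25 downstream. It was also 0.22 at mag2 and 0.18 at rpt6, both taken without flank. The input channel moved as well: the centred log2 input signal of the window was 0.090 in fft3Δ clr3Δ, 0.22 in clr3Δ, 0.11 and 0.50 in fft3Δ, and 0.32, 0.50 and 0.58 in wild type. On slide 1 the input was lower by 0.21 in fft3Δ while the ChIP signal was higher by 0.10. On slide 3 the input differed from wild type by −0.49 in the double mutant and by −0.36 in clr3Δ, and the ChIP signal by −0.32 in the double mutant, the lowest of the 7 arrays, and by −0.21 in clr3Δ. The ratio thus stayed in the wild-type range while both channels were lower. The part of the input in these ratios was not tested.

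snoZ30 differed more between slides than between genotypes. The ratio was −0.013 in fft3Δ clr3Δ, −0.25 in clr3Δ, 0.19 and −0.32 in fft3Δ, and 0.22, −0.36 and 0.055 in wild type. The arrays of slide 2 were the lowest of their genotype, and the wild-type spread (mean −0.027 ± 0.30, SD, n = 3) was the widest of the 4 genes. Within slides 1 and 2 the fft3Δ arrays differed from wild type by −0.032 and 0.040. On slide 3 clr3Δ differed by −0.31 and lay below wild type at 22 of 22 probes, although it lay inside the range of the 3 wild-type arrays. These probes share fragments and are not replicates. By gene window, clr3Δ lay below wild type on slide 3 at 1269 of 2245 genes. The double mutant, on the same slide, differed by −0.068.

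On slide 2 the low ratios of snoZ30 went with a higher input. The centred log2 input signal was −0.23 in fft3Δ and −0.10 in wild type on slide 2, and between −0.74 and −0.61 on the other 5 arrays, whereas the ChIP signal ranged from −0.86 to −0.42 without slide 2 standing apart. The low ratio of clr3Δ went with the lowest ChIP signal of the 7 arrays, −0.86, and on slide 3 its ChIP signal differed from wild type by −0.19 and its input by 0.13. The part of the input in the ratio was not tested. snoZ30 lies inside SPNCRNA.1483, annotated as a longer snoRNA transcript of 1152 bp, and opposite the antisense SPNCRNA.5464. SPNCRNA.1483 had a wild-type mean of −0.13 ± 0.19 (SD, n = 3), with differences of 0.0088 in the double mutant, −0.12 in clr3Δ and −0.024 in fft3Δ.

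**Figure D3:**
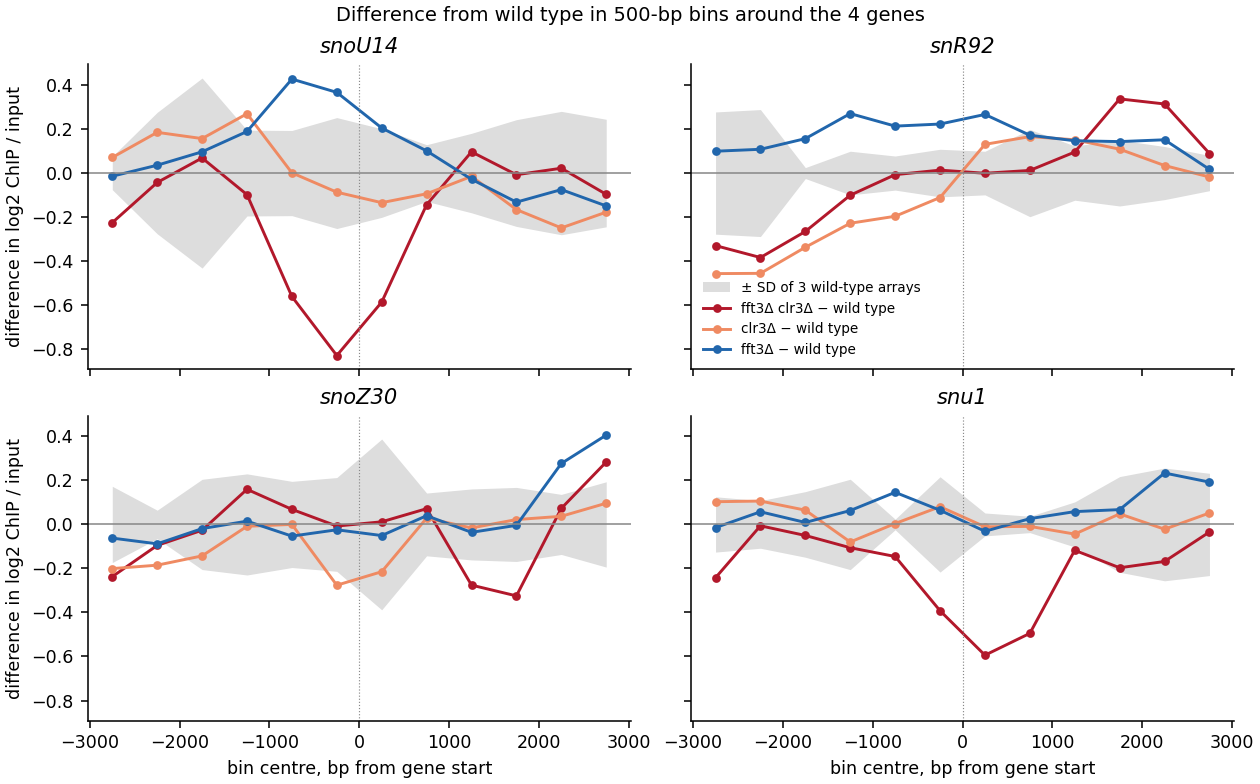
Difference in log2 ratio of ChIP to input from the wild-type mean in 500-bp bins of 10 probes, against the distance of the bin centre from the gene start in bp, for the double mutant (1 array), clr3Δ (1 array) and fft3Δ (mean of 2 arrays); grey is ± SD of the 3 wild-type arrays around 0. The double mutant reaches −0.83 just before snoU14 and −0.59 at the start of snu1, and comes back toward 0 within about 1 kb.

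In the channels themselves, the low ratios of the double mutant at snoU14 and snu1 went with a lower ChIP signal, and the input was lower as well. At snoU14 the centred log2 ChIP signal differed between the double mutant and wild type on slide 3 by −0.44, and the input by −0.051. At snu1 the same differences were −0.76 for ChIP and −0.23 for input. Against the mean of the 3 wild-type arrays they were −0.83 for ChIP and −0.23 for input at snoU14. At snu1 they were then −0.58 for ChIP and −0.11 for input. The part of the input in these ratios was not tested. The input of snu1 was low on all arrays, between −1.44 and −1.20, and its window had a GC content of 30.4%, against 35.9% for the chromosome. At snoU14 the ChIP signal of fft3Δ differed from that of wild type by 0.0091 on slide 1 and by 0.43 on slide 2, and the input by −0.052 on slide 1 and by 0.17 on slide 2.

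In the double mutant the other small RNA genes of the block lay closer to wild type than snoU14 and snu1 did. The arrays measured 13 further genes annotated as snoRNA, among them SPNCRNA.1483, whose window holds the probes of snoZ30, and none annotated as snRNA. In the double mutant their differences from wild type ranged from −0.22 at sno20 to 0.38 at snoR54, with a median of −0.020, and the median of the 4 genes was −0.25. In fft3Δ they ranged from −0.079 to 0.14 with a median of 0.047, and the median of the 4 genes was 0.13. Over all 2245 genes the medians were −0.048 for the double mutant and 0.010 for fft3Δ. The level in wild type differed too, with a median of 0.17 for the 13 genes and 0.41 for the 4. Over the 314 genes with a wild-type mean of 0.4 or more, snoU14, snu1 and snR92 among them, the double mutant had a median difference of −0.28. Of these 314 genes, 293 were below 0 and 21 above. Since the 4 genes were picked for these values, nothing is read from the contrast with the other 13.

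sno20 and snoR54 had the ends of that range. sno20 had a ratio of 0.61 in fft3Δ clr3Δ, 0.88 in clr3Δ, 1.11 and 0.85 in fft3Δ, and 0.83, 0.74 and 0.93 in wild type. The double mutant was the lowest array there too, by a smaller gap than at snoU14 and snu1. snoR54, whose ratio was below the array median throughout, had −0.036 in fft3Δ clr3Δ, −0.41 in clr3Δ, −0.45 and −0.54 in fft3Δ, and −0.34, −0.29 and −0.62 in wild type. There the double mutant was the highest array.

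**Figure D4:**
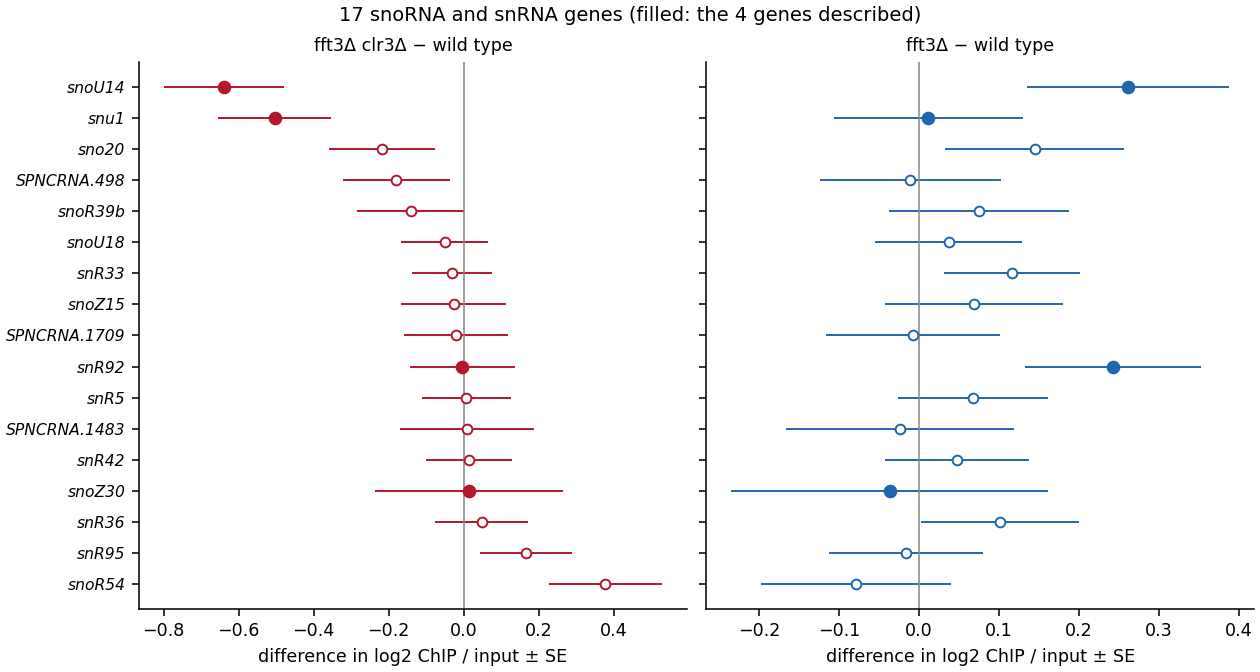
Difference in log2 ratio of ChIP to input from wild type with its SE from the fit (horizontal axes) for 17 snoRNA and snRNA genes, in the double mutant (left) and in fft3Δ (right), ordered by the value in the double mutant; filled points are the 4 genes described and open points the other 13. snoU14 (−0.64) and snu1 (−0.50) stand at the low end in the double mutant, and snoU14 (0.26) and snR92 (0.24) at the high end in fft3Δ. Over the 314 genes of any class with a wild-type mean of 0.4 or more, the median in the double mutant was −0.28.

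A fit across all genes gave the background to these numbers. With limma at a Benjamini-Hochberg adjusted p under 0.05, 114 of 2245 genes, 5.08%, differed between the double mutant and wild type, 81 higher (3.61%) and 33 lower (1.47%), where the lower ones were 13 without wild type 1 and 14 without wild type 3. Among the called genes were 0 of the 4 genes and 0 of the 13 others. Between clr3Δ and wild type 38 genes, 1.69%, were called, all higher, again with 0 of the 17. Between fft3Δ and wild type limma called 0 genes (0%), with 72 higher (3.21%) and 11 lower (0.49%) at an unadjusted p under 0.05. Between the double mutant and clr3Δ 2 genes (0.0891%) were called lower, neither of them among the 17. For the difference of both effects of fft3 deletion limma called 0 (0%), with 52 higher (2.32%) and 133 lower (5.92%) at an unadjusted p under 0.05. The rule for the 4 genes used these contrasts, and nothing is read from their counts.

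Groups that did not overlap were common. Both fft3Δ arrays lay above all wild-type arrays at snoU14 and snR92, at 1 of the 13 other genes (snR33), and at 10.4% of all genes. The double mutant lay below all wild-type arrays at snoU14 and snu1, at 3 of the 13 others (SPNCRNA.498, snoR39b and sno20), and at 39.1% of all genes. It was the lowest of all 7 arrays at 30.3% of genes. A single array below 3 others is therefore a frequent event on this array.

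**Figure D5:**
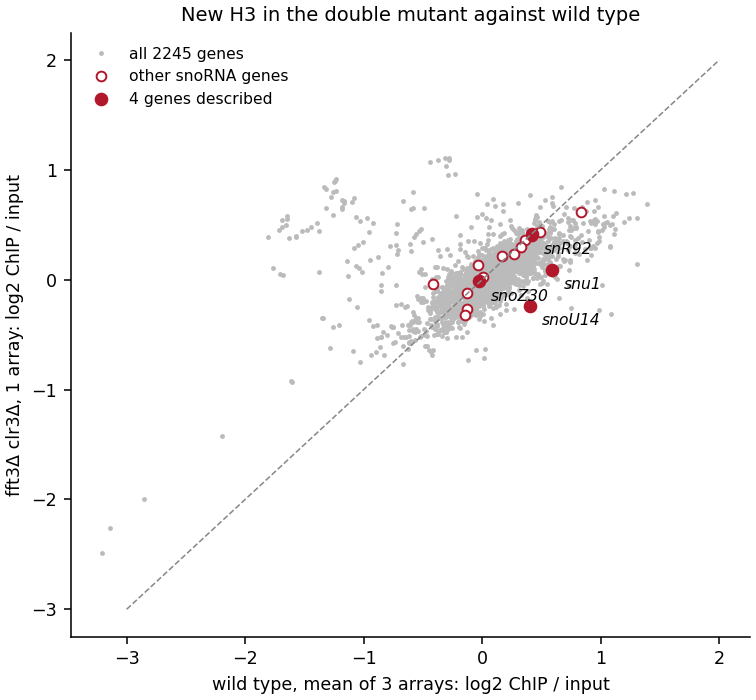
Log2 ratio of ChIP to input over gene windows in the double mutant (1 array, vertical) against the wild-type mean of 3 arrays (horizontal); grey points are all 2245 genes, open circles the 13 other snoRNA genes and filled circles the 4 genes, and the dashed line marks equal values. snoU14 (−0.24 in the double mutant, 0.40 in wild type) and snu1 (0.088 in the double mutant, 0.59 in wild type) lie below the line, while snR92 and snoZ30 lie close to it.

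The block also held genes for proteins of small RNA particles, namely fib1, the methyltransferase of box C/D particles, and msl1 of the U2 particle. The Sm protein genes smd3, sme1 and smf1 were measured as well. With shq1, an assembly factor of box H/ACA particles, and the Sm-like genes lsm1 and lsm3, these made 8 genes. None was called in any comparison. Their median difference between the double mutant and wild type was 0.15, with the highest value, 0.29, at smd3. Of these genes, 7 of 8 were above 0, where 906 of all 2245 genes were. Their wild-type level had a median of −0.12. In clr3Δ the median was −0.018 and in fft3Δ 0.021. The 7 genes of 5S rRNA on chromosome II had medians of −0.10 in the double mutant, 0.014 in clr3Δ and 0.016 in fft3Δ, with 0 called. The 41 tRNA genes had medians of 0.23 in the double mutant, 0.27 in clr3Δ and 0.12 in fft3Δ. Of them 2 were called higher in the double mutant, where 3.61% of all genes were, and 0 in clr3Δ or fft3Δ. The wild-type level of the tRNA genes had a median of −0.73. In fft3Δ 40 of the 41 were above 0, where 1226 of all 2245 genes were. Within slides 1 and 2 the fft3Δ counts were 34 and 40. In the double mutant 33 of the 41 were above 0, where 906 of all 2245 genes were. In clr3Δ 36 of the 41 were above 0, where 1007 of all 2245 genes were. Against wild type 3 on the same slide 27 of the 41 were above 0, where 976 of all 2245 genes were, and the median of the 41 was 0.095.

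The genes most like snoU14 over the 7 arrays were grp2, a gene for a Golgi protein (Pearson r = 0.999), SPNCRNA.1523, which overlaps grp2 (r = 0.995), and SPBC30B4.09 (r = 0.992). grp2 had differences of −0.63 in the double mutant and 0.25 in fft3Δ, nearly the values of snoU14 itself, at a higher level in wild type, 0.97. For snu1 the nearest were SPNCRNA.1552 (r = 0.959), SPNCRNA.5604 (r = 0.949) and mep33 (r = 0.949). For snR92 they were SPNCRNA.5419 (r = 0.962), SPNCRNA.1505 (r = 0.910) and zrg17 (r = 0.903). For snoZ30 they were 3 noncoding RNAs, SPNCRNA.5822, SPNCRNA.5113 and SPNCRNA.5423, with r between 0.970 and 0.983. These correlations rest on 7 arrays that share slides, 28 genes passed 0.9 with snoU14 and 62 with snoZ30, and they are given as a description. Among the 4 genes the values of snoU14 and snu1 correlated at 0.71, those of snoU14 and snR92 at 0.62, and the other 4 pairs at 0.33 or less.

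The upstream stretches of snoU14 and snu1 are shown because the double mutant was low there. Each is the 100 bases before the gene start in ASM294v3, on the plus strand, at chrII:1308534-1308633 for snoU14 and chrII:3020105-3020204 for snu1. Capitals mark a TATA box consensus in each. In snu1 they also mark part of the HomolD promoter box, which lies on the other strand.
snoU14 upstream: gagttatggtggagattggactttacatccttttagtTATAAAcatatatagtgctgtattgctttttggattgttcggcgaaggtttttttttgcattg
snu1 upstream: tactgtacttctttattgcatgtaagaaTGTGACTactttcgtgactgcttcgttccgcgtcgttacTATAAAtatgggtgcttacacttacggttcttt
In windows from 250 bases before to 50 after the gene start, searched on both strands, the TATA consensus TATAAA was found 63 bases before snoU14, 94 before snoZ30 and 33 before snu1, and not in snR92. snu1 held a further match on the other strand, 181 bases before the gene start. TATAAA occurred in 45.3% of the 12605 promoter windows of that length in the genome and in 50% of the 72 of snoRNA and snRNA genes. Part of the HomolD box, AGTCACA, began 72 bases before snu1 on the other strand and was found at none of the other 3 genes. It occurred in 3.3% of all windows and in 26.4% of those of snoRNA and snRNA genes. Among the 17 genes on the arrays, AGTCACA was found at 4, namely snu1, sno20, snoZ15 and snR42, whose differences in the double mutant were −0.50, −0.22, −0.027 and 0.014. A match of these letters is not evidence of a bound factor.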

How the data were processed

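Arrays of 2 colours measured ChIP (Cy5) against input (Cy3) DNA in 4 genotypes, 7 arrays in all. The authors used Agilent Feature Extraction, per the submitters' processing notes; versions 10.7.3.1 and 12.0.3.1 are given per the file headers. The deposited processed intensities are background-subtracted and dye-normalized, and median intensities of spot and local background are uncorrected, per the file headers. The deposited series table holds log2 ratios, found equal to log2 of red over green processed signal without centring or scaling. The deposited log10 ratios were used as a check only and were off by over 0.001 at 2 to 66 probes per array. Which genome build the probe names follow is not stated in the labels or headers used here.

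File coordinates were placed on ASM294v3 by subtracting 900 bp below file position 1616911 and 1800 bp above it. Around each of the 4 genes (10000 bp on each side) the input signal tracked reference GC content most closely at a shift of 0 bp, with correlations of 0.57 to 0.70 against at most 0.45 beyond 100 bp. Spots marked as nonuniform or population outliers were left out, 929 on the double-mutant array and 4 to 323 on each other array. Of these, 1 lay in the 4 windows, on the double-mutant array. Log2 ratios were centred on the array median and averaged over probes with midpoints within 500 bp of a gene. The values of the neighbours mamRNA, sol1, mag2, rpt6, zng1 and gpt2 were averaged over the probes inside the gene, without flank. That of SPNCRNA.1483 includes the flank. Gene values with at least 2 probes were fitted by limma 3.58.1 (R 4.3.3) with 1 mean for each genotype over 7 arrays. This leaves 3 residual degrees of freedom. The fit was run on simulated data for fft3Δ against wild type only. Those data had less noise than the arrays and larger differences than the 4 genes. They therefore do not show how the fit does for genotypes with 1 array. Genes with a Benjamini-Hochberg adjusted p under 0.05 were called. clr3Δ and the double mutant have 1 array each and are assumed to vary like the replicated genotypes. The 4 genes and all lists were chosen with earlier results of these data known. Named were the 4 genes, the other snoRNA genes, annotated neighbours, the particle proteins and, for each gene, the 3 most correlated genes that share no probe with it. Promoter windows and sequences come from RefSeq's ASM294v3.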

Additional observations from a re-analysis of the deposited data

How the results depend on the processing

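The medians of the 4 genes moved by less than 0.148, the SD of that median over the 3 wild-type arrays, under all 23 alternatives. For the double mutant against wild type the median ranged from −0.364 to −0.198 (main −0.25), and for fft3Δ against wild type from 0.00807 to 0.239 (main 0.13), the ends being without fft3Δ replicate 1 and without fft3Δ replicate 2. The difference at snoU14 between the double mutant and wild type stayed between −0.765 and −0.431, and that at snu1 between −0.601 and −0.407. Neither was called in the main fit. Some alternatives called 1 or both of them, among these slide as a random block for both. Nothing is read from these calls, because the genes were chosen on these ratios.

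Counts of called genes moved more. For fft3Δ against wild type (main 0) they were 4 with quantile normalization, 1 with equal spread, 2 with normexp, 3 with a 1000 bp flank, 3 with trend and robust variance, and 0 to 2 on leaving out an array. For clr3Δ against wild type (38) they were 62 with quantile normalization, 0 without repeated probes, 22 with trend and robust variance, and 27 to 50 on leaving out an array. For the double mutant against wild type (114) they were 35 without repeated probes and 86 to 136 on leaving out an array, the lower ones 13 to 45. For the double mutant against clr3Δ (2) they were 52 with quantile normalization (40 higher and 12 lower, against 0 and 2), 1 with the median over probes, and 0 to 2 on leaving out an array, with 0 without wild type 3. For the difference of both effects (0) they were 2 with loess, 17 with quantile normalization, 2 with normexp, 2 without repeated probes and 0 to 2 on leaving out an array. The cause of these changes was not tested.

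With slide as a replicate block the 5 counts were 20, 71, 165, 101 and 6, with 1 residual degree of freedom, and as a random block 5, 61, 179, 38 and 2. The wild-type and fft3Δ arrays of a slide deviated together from their genotype means over genes, with correlations of 0.59 on slide 1 and 0.34 on slide 2. Depth is not a limit at these probes, all well above background; 1 array each for clr3Δ and the double mutant is, and no replicate stands behind the low values at snoU14 and snu1.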
